A study of Drosophila melanogaster with 2 samples.

Results

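Synaptic and ion channel genes encode the proteins with which neurons fire, release transmitter and receive it. The group was made of the genes of the deposited table whose symbol stands in a fixed list of channel, vesicle, transmitter enzyme, transporter and receptor genes, or begins with *nAcR*, the older symbol of the nicotinic acetylcholine receptor subunits. This gave 46 of the 14794 genes of the table, with 9 *nAcR* genes among them, and none of the listed symbols was missing. Genes were taken by symbol and not by expression values, but the list was chosen with earlier results of these data known. Of the 46 genes, 39 had a mean FPKM of at least 1 and were compared, and the other 7 are given with their values below. FPKM divides the fragments of a gene by transcript length and by library depth, so that levels of different genes can be set side by side.

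The study asked which transcripts are misregulated in males mutant for *hephaestus* (*heph*), which encodes dmPTB, the fly polypyrimidine tract-binding protein. Polyadenylated RNA of whole adult males, 1 to 3 days after eclosion, was sequenced in 1 library of *heph2* homozygotes and 1 library of *heph2*/*TM3* males, which served as the control. The *heph2* allele is a *P* element insertion in an intron of *heph*, and its homozygous males are sterile. Both genotypes therefore carry *heph2*, and the control carries it over *TM3*, a rearranged balancer of chromosome 3. Differences between chromosome 3 of the homozygotes and *TM3* cannot be told apart from those of *heph*. With 1 library per genotype, no difference could be checked against a replicate and no p-value is given. Each comparison is between these 2 libraries, and "lower" and "higher" refer to the *heph2* library against the control library. In whole flies, fewer neurons and less RNA per neuron cannot be told apart.

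In a neuron, voltage-gated sodium and potassium channels shape the action potential, and a voltage-gated calcium channel at the active zone admits the calcium that triggers release. Vesicles filled by vesicular transporters fuse through the SNARE proteins, which a calcium sensor and priming factors control. Acetylcholine is the main fast excitatory transmitter of the fly brain, glutamate is the transmitter at its neuromuscular junction, and dopamine, serotonin and octopamine act as modulators.

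The targeted gene *heph* (FBgn0011224, chromosome 3R from 27676704 to 27819000, FlyBase r5.44) was measured at 44.0 FPKM in the control against 27.2 in *heph2*, 61.8% of the control. This value covers the gene on both sides of the insertion. According to the paper, most *heph* transcripts of the homozygotes are truncated, and few full-length ones remain. The median log2 ratio over all 11962 genes compared was 0.01, with quartiles of -0.24 and 0.29. Summed over all 14794 genes of the table, the FPKM in *heph2* were 121.7% of the control, a value that depends on how each library was scaled. Marker genes of several tissues of the whole fly differed in summed level between the libraries. The 10 muscle marker genes summed to 11788 FPKM in the control and 23090 FPKM in *heph2*, with 7 higher, led by *fln* and *Act88F*, and 3 lower. The 13 accessory gland genes summed to 43636 and 27416 FPKM, and all 13 were lower. The 15 testis genes summed to 9842 and 15727 FPKM, with 9 higher, abundant *Mst* genes among them, and 6 lower. The lower ones were *comr*, *can*, *fzo*, *aly*, *betaTub85D* and *sa*. Several *Mst* transcripts are very short. Relative to genes of similar transcript length, 8 testis genes were higher and 7 lower, with a median log2 ratio of 0.26. With level matched too, 10 were higher and 5 lower, with a median of 0.13. The 13 eggshell and yolk protein genes summed to 327 FPKM in the control and 29.4 FPKM in *heph2*, although the paper describes both libraries as male. Of the 12 compared, 11 were lower and 1 was higher. None of these lists shares a gene with the synaptic and ion channel genes.

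Taken as a whole, the synaptic and ion channel genes were somewhat lower in *heph2*. The median log2 ratio of the 39 genes compared was -0.35, with 34 lower and 5 higher, against 48.5% lower and 51.5% higher among all genes compared. Its quartiles were -0.50 and -0.14. The 5 higher genes were *Cha*, *Syx1A*, *Sh*, *DAT* and *nAcRbeta-21C*. No gene of the group that was compared differed 2-fold, where 5.23% of all genes did. At least 1.5-fold, 6 genes were lower, or 15.4% of those compared, against 7.26% of all genes, and 0 were higher, against 9.16% of all genes. This gap nearly closed when the ratios of genes of low level were damped or left out. With a pseudocount of 1 the shares were 5.13% of the group and 4.76% of all genes, and at a mean of at least 5 FPKM they were 4.55% and 4.75%. The 6 genes were *Shaw*, *nAcRalpha-96Ab*, *Tdc2*, *VAChT*, *nAcRalpha-80B* and *Tbh*. Summed over all 46 genes, the level was 865 FPKM in the control and 726 FPKM in *heph2*, 83.9% of the control. Over all genes of the table, the sum in *heph2* was 121.7% of the control. Both sums carry the scaling inside the FPKM values. At equal transcript length, 1 read was worth 1.53 times as many FPKM in *heph2* as in the control. How much of either sum comes from that scaling was not tested.

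**Figure D1:**
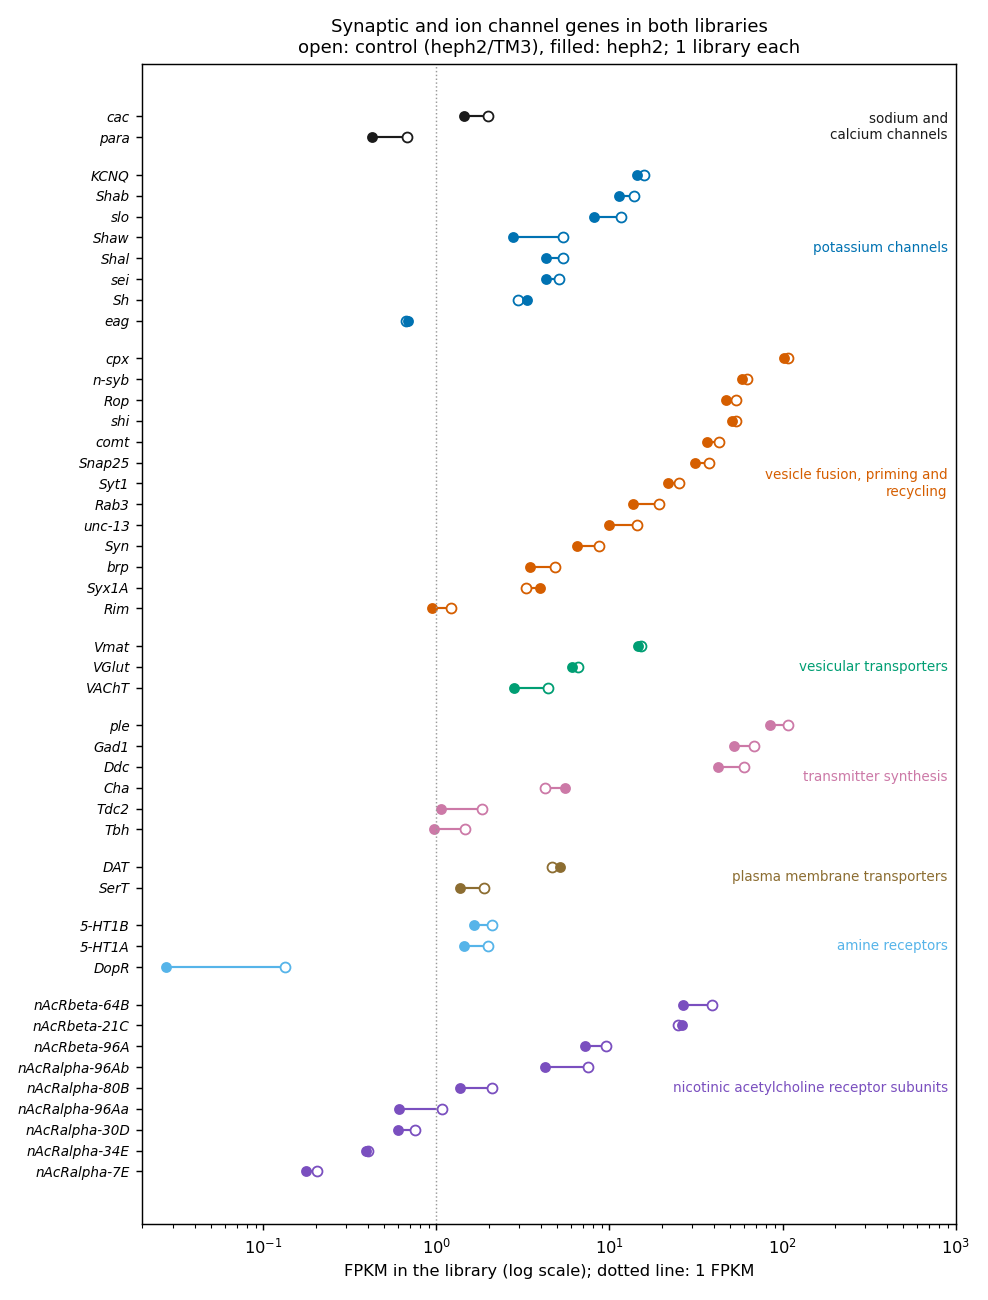
FPKM of the 46 synaptic and ion channel genes on a logarithmic axis, grouped by role, with open circles for the control library and filled circles for the *heph2* library (1 library each). Most filled circles lie to the left of the open ones by a small distance, levels run from below 1 FPKM to over 100 FPKM (*cpx*), and *DopR* has the widest gap at the lowest level.

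These genes have long transcripts, and the ratios of the whole table moved with length. The transcripts of the genes compared had a median length of 3124 nucleotides, from 1532 for *nAcRbeta-21C* to 10276 for *unc-13*, against a median of 1664 nucleotides for all genes compared. Their loci were long too, with a median of 18986 base pairs against 3414. Over all genes, the median log2 ratio was 0.36 in the decile of genes with the shortest transcripts (up to 660 nucleotides) and -0.23 in the decile with the longest (4159 nucleotides or more). Spearman's rho between ratio and transcript length was -0.45 over 11670 genes. Genes are not independent replicates, and all points come from the same 2 libraries.

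Against genes of similar length the shift of the group was smaller. Among the 4677 genes compared with transcripts of over 2000 nucleotides, 71% lay below the control in *heph2* and 6.88% were at least 1.5-fold lower. When each ratio was taken relative to the median of its decile by transcript length, the median of the 39 genes was -0.18, with 29 lower and 10 higher. On this scale 50% of all genes are lower, and as many higher, by construction. At least 1.5-fold lower on this scale were 4 genes, *Shaw*, *nAcRalpha-96Ab*, *Tdc2* and *nAcRbeta-64B*, or 10.3% of those compared, against 7.57% of all genes. With the level of the genes matched as well, the median was -0.17, with 30 genes lower and 9 higher, against 49.9% of all genes each. On that scale 5 genes were at least 1.5-fold lower, or 12.8% of those compared, against 6.5% of all genes. They were *Shaw*, *nAcRalpha-96Ab*, *Tdc2*, *Ddc* and *nAcRbeta-64B*. On the same scale 1 gene, *Cha*, was at least 1.5-fold higher, against 5.41% of all genes. Why the ratios of these libraries move with length was not tested.

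Within the group the trend with length was weak. Spearman's rho over the 39 genes was -0.15. The genes lay in deciles 5 to 10 of length, over which the medians of all genes ran from 0.05 to -0.23. The 12 genes of over 4000 nucleotides were all lower, with a median log2 ratio of -0.43, and the 27 shorter genes had a median of -0.33, with 22 lower. Against level, rho was 0.33 over the 39 genes and 0.44 over all 11962 genes compared. The 17 genes with a mean of at least 10 FPKM had a median of -0.22, and the 22 genes compared that lay under 10 FPKM had a median of -0.44. All 6 genes that were at least 1.5-fold lower were among the latter.

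**Figure D2:**
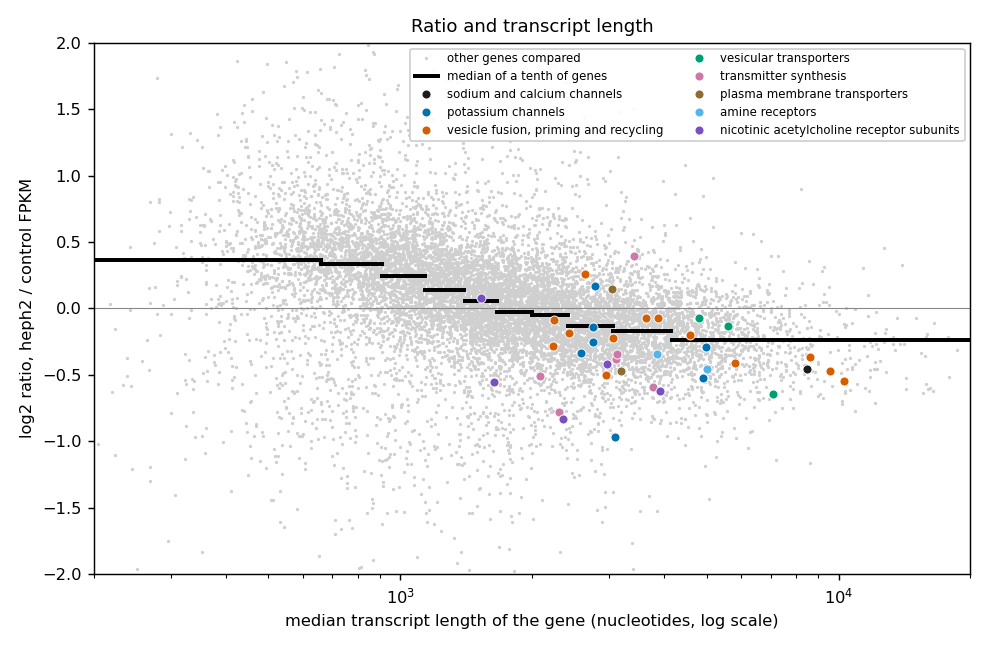
Log2 ratio of *heph2* to control FPKM against the median transcript length of each gene on a logarithmic axis, with all genes compared in grey, the median of each decile of length as black bars, and the 39 synaptic and ion channel genes coloured by role. The black bars step down from 0.36 to -0.23, and 29 of the 39 coloured points lie below their bar; 175 of the 11670 genes with a length fall outside the drawn range.

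The 2 genes for sodium and calcium channels were both lower. *cac* (FBgn0005563, chromosome X from 11827719 to 11875209) encodes the pore subunit of the calcium channel of the active zone. It reached 1.97 FPKM in the control against 1.44 in *heph2*, a log2 ratio of -0.45. *para* encodes the sodium channel of the action potential, and with 0.678 FPKM in the control and 0.427 FPKM in *heph2* it stayed under the minimum of 1 FPKM. About 207 and 85 reads stood behind the values of *para*, so the log2 ratio of -0.67 had an interval from -1.05 to -0.30 from counting alone. Reads and intervals are approximate, since they were worked out from the steps in which low FPKM values move, and they cover counting error only, not differences between flies.

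The potassium channels compared ranged in log2 ratio from -0.97 to 0.17, and all but 1 were lower. *Shaw* (FBgn0003386, chromosome 2L from 3718187 to 3727587), a voltage-gated channel that inactivates little, was the lowest of the 39 genes. Its level was 5.40 FPKM in the control and 2.76 FPKM in *heph2*, 51.0% of the control with a log2 ratio of -0.97, just short of 2-fold. About 724 and 241 reads stood behind these values, with an interval from -1.19 to -0.76, and relative to genes of similar length the log2 ratio of *Shaw* was -0.80. Of all genes compared, 2.57% had a lower ratio. *slo*, the large-conductance channel opened by calcium and voltage, followed with 11.7 FPKM and 8.16 FPKM and a log2 ratio of -0.52.

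The other potassium channels compared differed less. *Shal* and *Shab*, which carry a transient and a delayed rectifier current, had log2 ratios of -0.33 and -0.29. *Shal* stood at 5.39 against 4.27 FPKM and *Shab* at 13.8 against 11.3 FPKM. *sei*, a channel of the ERG type, and *KCNQ*, the fly channel of the M-current family, had -0.25 and -0.14, from 5.13 against 4.30 FPKM for *sei* and 15.9 against 14.4 FPKM for *KCNQ*. *Sh*, the Shaker channel of fast transient current, was the exception, with 2.98 FPKM in the control, 3.35 FPKM in *heph2* and a log2 ratio of 0.17 whose interval from -0.06 to 0.41 included 0. *eag* was at 0.664 FPKM and 0.683 FPKM, under the minimum. The median of the 7 potassium channel genes compared was -0.29.

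Of the 13 genes of vesicle fusion, priming and recycling, 12 were lower, most of them by little. The 13 genes had a median log2 ratio of -0.22, from -0.55 to 0.26, and summed to 435 FPKM in the control and 387 FPKM in *heph2*, 89.1% of the control. *cpx* (FBgn0041605, chromosome 3R from 105906 to 128309) encodes complexin, which clamps the assembled SNARE complex. It came to 107.6 against 102.5 FPKM, 95.2% of the control. The vesicle SNARE gene *n-syb* came to 62.0 FPKM in the control against 58.4 in *heph2*, and *shi*, which encodes the dynamin that pinches vesicles off the membrane, stood at 53.5 against 50.8 FPKM. The log2 ratios of these 3 genes lay between -0.09 and -0.07.

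The SNARE partners and their regulators were slightly lower. *Rop*, which encodes the partner of syntaxin of the Sec1/Munc18 family, was measured at 53.7 against 47.2 FPKM, and *comt*, which encodes the ATPase that takes SNARE complexes apart, reached 43.0 against 36.8 FPKM. *Snap25*, a SNARE of the plasma membrane, stood at 37.8 FPKM in the control against 31.1 in *heph2*, and *Syt1*, the calcium sensor of release, came to 25.2 against 21.8 FPKM. Log2 ratios of these 4 genes ran from -0.28 to -0.19. *Syx1A*, the syntaxin with which they act, went the other way, at 3.31 FPKM in the control against 3.96 in *heph2*, or 0.26 on the log2 scale. It shares its locus entry with 2 other genes of the table, and its interval from counting alone ran from 0.03 to 0.48.

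The 5 lowest ratios of this role belonged to *unc-13*, *Rab3*, *brp*, *Syn* and *Rim*. *unc-13* (FBgn0025726, chromosome 4 from 891551 to 925419), which encodes the priming factor, was measured at 14.5 FPKM in the control against 9.94 in *heph2*, a log2 ratio of -0.55. *Rab3*, the small GTPase of synaptic vesicles, stood at 19.3 against 13.7 FPKM, a log2 ratio of -0.50. *brp*, the Bruchpilot scaffold of the active zone, and *Syn*, synapsin, had ratios of -0.47 and -0.41, and *Rim*, a further active zone protein, one of -0.37. *brp* stood at 4.81 against 3.47 FPKM, *Syn* at 8.66 against 6.52 FPKM and *Rim* at 1.22 against 0.944 FPKM. All 5 of these genes were below the median of genes of similar length, with log2 ratios to it from -0.37 to -0.13. With the level matched too, *Rim* was at 0.02.

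The genes of acetylcholine transmission gave ratios of both signs at 1 locus. *Cha*, choline acetyltransferase, and *VAChT*, the vesicular acetylcholine transporter, are listed under the same locus entry (chromosome 3R from 14531174 to 14558068), because *VAChT* lies within an intron of *Cha* and both are read from the same start. *Cha* reached 4.23 FPKM in the control against 5.55 in *heph2*, a log2 ratio of 0.39, the highest of the 39 genes. *VAChT* came to 4.42 FPKM in the control against 2.82 in *heph2*, a log2 ratio of -0.65. The intervals from counting alone, 0.22 to 0.56 for *Cha* and -0.79 to -0.51 for *VAChT*, did not overlap. The FPKM values of overlapping transcripts depend on how reads of shared exons were divided, so that neither ratio is certain. Without both genes, 33 of the remaining genes compared were lower, 4 were higher, and the median stayed at -0.35.

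The nicotinic subunits form the fast receptors of acetylcholine. Of the 9 nicotinic subunits, 5 were compared, with a median log2 ratio of -0.56, 4 lower and 1 higher. *nAcRbeta-64B* (FBgn0000038, chromosome 3L from 4429370 to 4435999) was the most abundant, with 39.3 FPKM in the control, 26.8 FPKM in *heph2* and a log2 ratio of -0.56. *nAcRalpha-96Ab* (FBgn0000039, chromosome 3R from 20311164 to 20316875) was measured at 7.52 against 4.22 FPKM, 56.2% of the control at a log2 ratio of -0.83. The transcripts of these subunits had a median length of 2353 nucleotides, shorter than those of the group, and set against genes of similar length their median was -0.45, or -0.30 with the level matched too. On the last scale the median of the transmitter synthesis genes was -0.32.

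The remaining nicotinic subunits were less uniform. *nAcRalpha-80B* stood at 2.10 FPKM in the control against 1.36 in *heph2*, and *nAcRbeta-96A* reached 9.60 against 7.18 FPKM, log2 ratios of -0.62 and -0.42. *nAcRbeta-21C*, a short subunit gene with a single annotated transcript, was an exception, with 24.9 FPKM and 26.3 FPKM and a log2 ratio of 0.08. Under the minimum, *nAcRalpha-96Aa* was at 1.08 FPKM in the control and 0.605 FPKM in *heph2*, and *nAcRalpha-30D* at 0.750 and 0.603 FPKM. *nAcRalpha-34E* was at 0.403 and 0.393 FPKM and *nAcRalpha-7E* at 0.203 and 0.176 FPKM. With these 4 genes added, the median of the 9 subunits was -0.42. *nAcRalpha-96Aa*, *nAcRalpha-96Ab* and *nAcRbeta-96A* are near neighbours on chromosome 3R, with log2 ratios of -0.84, -0.83 and -0.42.

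The transcript levels of the vesicular transporters for glutamate and amines were slightly lower in *heph2*. *VGlut*, the vesicular glutamate transporter, was measured at 6.60 FPKM in the control against 6.04 in *heph2*, and *Vmat*, which loads dopamine, serotonin and octopamine, came to 15.3 against 14.5 FPKM. Both were above the median of genes of similar length, by 0.10 and 0.16 on the log2 scale, while the log2 ratios of their deposited FPKM values were -0.13 and -0.07. The interval of *Vmat* from counting alone, -0.15 to 0.01, included 0, and *Vmat* shares its locus entry with other genes.

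The enzymes that make transmitters other than acetylcholine were all lower. *Gad1*, which makes the inhibitory transmitter GABA, reached 68.3 FPKM in the control against 52.4 in *heph2*, a log2 ratio of -0.38. *ple* (FBgn0005626, chromosome 3L from 6706455 to 6712624), tyrosine hydroxylase, stood at 108.2 against 85.1 FPKM, a log2 ratio of -0.35, and *Ddc*, dopa decarboxylase, was measured at 60.2 against 42.4 FPKM, a ratio of -0.51. *ple* and *Ddc* make dopamine in neurons and are also used in the epidermis, where dopamine hardens and darkens the cuticle, so their level in whole young flies is not that of neurons alone.

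The octopamine enzymes had larger ratios from few reads. *Tdc2*, the neuronal tyrosine decarboxylase, came to 1.82 FPKM in the control against 1.06 in *heph2*, a log2 ratio of -0.78, and *Tbh*, tyramine beta-hydroxylase, reached 1.46 against 0.972 FPKM, a ratio of -0.59. About 178 and 68 reads stood behind *Tdc2*, with an interval from -1.20 to -0.36, and *Tdc2* shares its locus entry with 5 other genes. Of the 6 synthesis genes, *Cha* included, 5 were lower, and the median was -0.44, or -0.32 relative to genes of similar length.

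The transporters that clear amines from the synapse gave ratios of opposite sign. *SerT*, the serotonin transporter, stood at 1.88 FPKM in the control against 1.36 in *heph2*, a log2 ratio of -0.47. *DAT*, the dopamine transporter, came to 4.65 against 5.15 FPKM, a log2 ratio of 0.15 whose interval from -0.03 to 0.33 included 0.

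The serotonin and dopamine receptor genes had low levels. *5-HT1A* was measured at 1.99 FPKM in the control against 1.45 in *heph2*, and *5-HT1B*, the second serotonin receptor of this class, stood at 2.09 against 1.65 FPKM, log2 ratios of -0.46 and -0.34. With length and level both matched, they were at -0.07 and -0.02. *DopR*, a dopamine receptor of the D1 type, had the lowest ratio of the 46 genes but also the lowest level, with 0.133 FPKM in the control and 0.0274 FPKM in *heph2*. By the median transcript length, about 15 and 2 reads stood behind these values, and the interval of its log2 ratio of -2.28 ran from -5.46 to -0.18. With its longest transcript of 14565 nucleotides, the estimates were 89.1 and 11.9 reads. *DopR* is the 1 gene of the 46 that differed at least 2-fold.

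**Figure D3:**
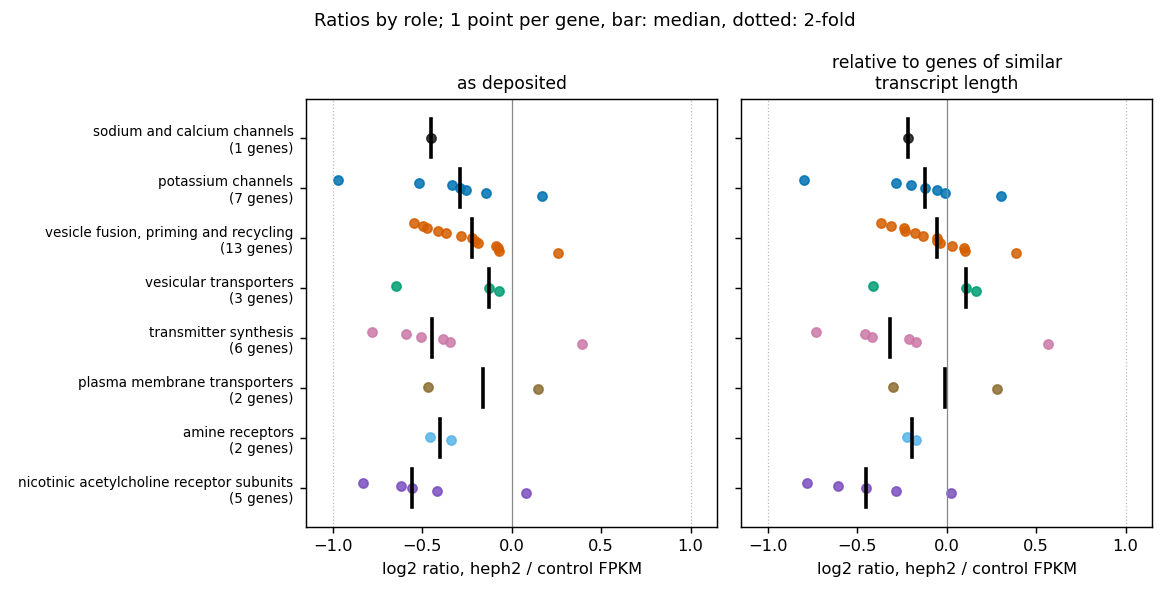
Log2 ratio of *heph2* to control FPKM for the 39 genes compared, 1 point per gene in rows by role with the median as a bar, as deposited on the left and relative to genes of similar transcript length on the right. On the left the medians run from -0.56 (nicotinic subunits) to -0.13 (vesicular transporters), and on the right from -0.45 to 0.10, with no point beyond the dotted 2-fold lines.

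Counting error was small against most of these ratios. For 35 of the 39 genes compared the interval from counting alone did not include 0, with 33 genes lower and 2, *Cha* and *Syx1A*, higher. Where 0 lies is set by the scaling of the FPKM values, which the intervals do not cover. Relative to genes of similar length, 20 of the 39 ratios left their own interval, and 27 did with level matched too. Centred on ribosomal protein genes of the cytosol, all 39 did. The compared genes had about 178 to 17150 reads in the control and 68 to 10642 reads in *heph2*. How far 2 libraries of the same genotype would differ cannot be read from these data.

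**Figure D4:**
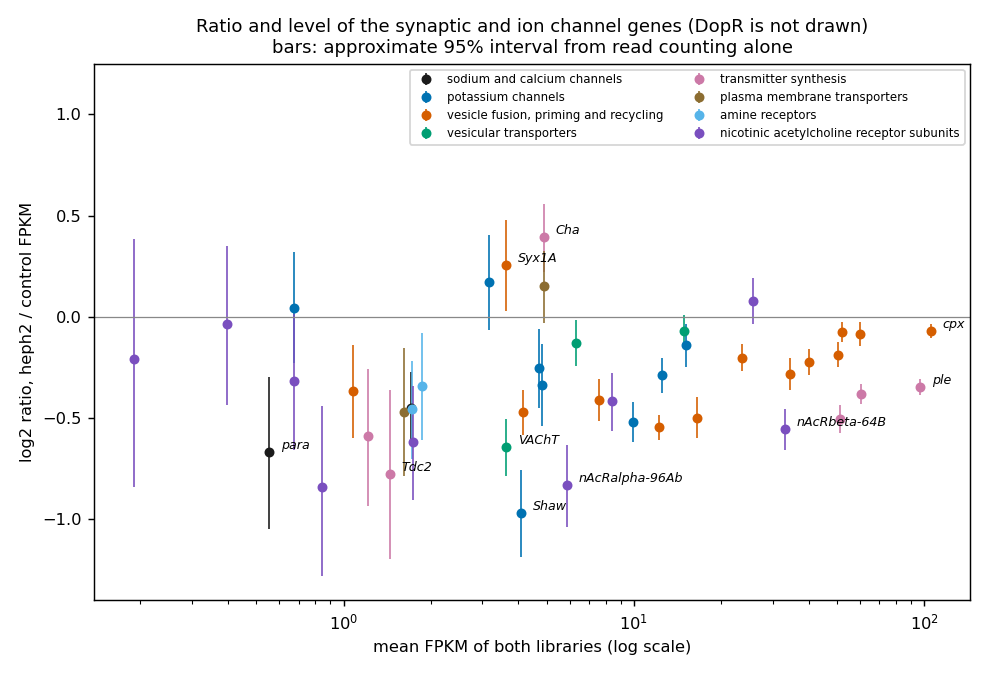
Log2 ratio against the mean FPKM of both libraries on a logarithmic axis for the 46 genes other than *DopR*, coloured by role, with bars for the approximate 95% interval from counting alone. Below 10 FPKM the points reach from -0.97 (*Shaw*) to 0.39 (*Cha*), and from 10 FPKM upwards they lie between -0.56 and 0.08.

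The 18 genes compared on chromosome 3, which differs between the genotypes, had a median log2 ratio of -0.36 with 16 lower, and the 21 genes on the other chromosomes had a median of -0.34 with 18 lower. With length and level both matched, the medians of the group were -0.22 on chromosome 3 and -0.07 elsewhere. Among all genes the medians of the log2 ratios were 0.00 on chromosome 3 and 0.02 elsewhere. With length and level matched, those of all genes were -0.01 and 0.01. A total of 17 of the 39 genes compared share their locus entry with another gene. The 22 genes alone in their locus had a median of -0.36, with 20 lower.

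Other genes of the same pathways, taken from fixed lists, were mostly lower too. Their medians depended on level: at a mean of at least 5 FPKM they were -0.16 for other ion channels, -0.11 for other presynaptic genes and -0.45 for other receptor and transmitter genes, against -0.29 for the synaptic and ion channel genes. Of 19 other ion channel genes compared, 17 were lower, with a median of -0.33, or -0.14 relative to genes of similar length. *unc79*, which belongs to the sodium leak channel complex, was the 1 gene of these lists that differed at least 2-fold. It stood at 6.42 FPKM in the control against 2.86 in *heph2*, or -1.17 on the log2 scale, and it shares its locus entry with another gene. Relative to genes of similar length its ratio was -0.93, short of 2-fold, and with a pseudocount of 1 it fell short as well. *Ca-alpha1T*, a calcium channel opened at low voltage, had the next lowest ratio at -0.77, and *Hk*, a subunit that joins Shaker channels, and *Slob*, which binds the Slowpoke channel, had the highest at 0.07 and 0.01.

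Of 23 other presynaptic genes compared, 19 were lower, with a median of -0.28, or -0.05 relative to genes of similar length, and -0.10 among those alone in their locus. The lowest were *hiw*, a ubiquitin ligase that limits synapse growth, at -0.62 and *Rab27* at -0.55. The highest were *Csp*, a vesicle chaperone, at 0.08 and *lap*, a clathrin adaptor of vesicle recycling, at 0.03. Of 31 other receptor and transmitter genes compared, 25 were lower, with a median of -0.31, or -0.17 relative to genes of similar length. The metabotropic GABA receptor genes *GABA-B-R2* and *GABA-B-R1* were lowest at -0.71 and -0.70, and *ort*, a histamine-gated channel, and *Grd*, a subunit related to GABA receptors, were highest at 0.40 and 0.36.

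General neuronal markers gave ratios of both signs. Of all 8 compared, 5 were lower, with a median log2 ratio of -0.23, or -0.09 relative to genes of similar length. Of the 6 neuronal markers compared that are not in the group, 3 were lower and 3 higher. Their median log2 ratio was -0.18, or 0.04 relative to genes of similar length. They ran from *futsch*, a microtubule-associated protein, at -0.54 to *elav*, a pan-neuronal RNA-binding protein, at 0.14. The 8 glial markers in the table summed to 654 FPKM in the control and 748 FPKM in *heph2*, with 3 lower and 5 higher. Their sum in *heph2* was 114.4% of the control, against 121.7% for all genes of the table, but *Gs2* alone held 407 and 482 FPKM of it. The median log2 ratio of the glial markers was 0.06, against 0.01 for all genes compared. Relative to genes of similar length it was 0.15, with 2 lower and 6 higher. The 10 photoreceptor markers summed to 2053 and 1438 FPKM, with 9 lower and a median of -0.30, or -0.24 relative to genes of similar length. No marker of these lists was at 0 in either library. The marker lists overlap with the pathway lists: *futsch*, *trp* and *Eaat1* stand in both kinds. The part of these cell types in the ratios of the synaptic and ion channel genes was not tested.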

How the data were processed

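Single 50-base reads were aligned by the authors with TopHat2 2.0.4 to FlyBase r5.44. From Cufflinks 2.0.0 they deposited an FPKM value for each gene in each library, whose scaling options are not given in the sources used here. A column with the authors' own log2 ratio was not used. FPKM values hold no read counts, so a test of reads could not be repeated. Ratios were computed without a pseudocount and summarised for genes whose FPKM averaged 1 or more and was never 0. Ratios of the 7 genes of the group under that minimum are given singly. Differences of at least 2-fold and 1.5-fold were counted.

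Transcript lengths came from the BDGP6 annotation, matched by identifier for 13462 genes and by symbol or synonym for 725. The lengths are medians over a gene's annotated transcripts and may differ from those of r5.44. Of the genes compared, 97.6% had a length. Length-matched values subtract the median of the gene's decile by length. Positions are those of the table, with 1 added to each start. Of 8716 genes alone in their locus, 1489 had their BDGP6 length when starts were counted from 0 and 146 when counted from 1.

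Low FPKM values moved in steps. On 1 kilobase, 1 read was worth 0.0215 FPKM in the control and 0.0330 FPKM in *heph2*, by which reads were estimated, assuming fragments of 200 ± 80 bases. Among low genes with 1 transcript, 61.4% and 62.7% lay within 0.1 of a whole read, where chance gives 20%. Intervals are exact binomial 95% intervals on these reads. The depth per library limits the precision of low values only in this approximate way.

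Every gene of the group is named. Of the pathway lists, genes that differed at least 2-fold and the 2 highest and 2 lowest are named. The group and the lists were chosen with earlier results of these data known. Python 3.11.15, numpy 2.4.6, pandas 2.3.3 and scipy 1.17.1 were used, and the steps were tested on simulated data.

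Alternatives were another pseudocount, other minimum levels, other centres of the ratios, other measures of length, and genes alone in their locus.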

Additional observations from a re-analysis of the deposited data

How the results depend on the processing

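No paired analysis was possible because each genotype has 1 library. The count of synaptic and ion channel genes at least 1.5-fold lower moved from 6 to 2 with a pseudocount of 1 (569 of all genes), to 1 at a mean FPKM of at least 5 (453 of all genes), to 3 with only genes alone in their locus (13.6%, against 8.06% of all genes), and to 28 (71.8%, against 33.2% of all genes) with the 86 ribosomal protein genes of the cytosol as centre, whose own median was 0.44. That centring also left 39 genes lower and 0 higher, put 6 genes past 2-fold, moved the median to -0.79 and the 2-fold count of all genes from 626 to 1039. With no minimum FPKM 1 gene, *DopR*, passed 2-fold, as did 1035 of all genes. At a mean of at least 5 FPKM, 21 genes were lower and 1 higher, and with only genes alone in their locus 20 and 2, since fewer genes were compared. Relative to genes of similar length the median was -0.18 with 10 genes higher. Relative to similar length and level, a step added after seeing the data, it was -0.17 with 9 higher and 1, *Cha*, at least 1.5-fold higher. With no minimum the median of the nicotinic subunits moved from -0.56 to -0.42, and that of sodium and calcium channels from -0.45 to -0.56. With a pseudocount of 1 these medians were -0.39 and -0.28, and that of amine receptors moved from -0.40 to -0.25. With only genes alone in their locus the potassium channel median moved from -0.29 to -0.52. The centrings for length and on ribosomal protein genes moved most role medians. Under the centrings for length, 5 genes and 4 genes changed from lower to higher and 0 the other way. The trend with length within the group (Spearman's rho, -0.15 in the report) was 0.0067 with the longest transcript, -0.012 with locus length and 0.013 at a mean of at least 5 FPKM, so it depended on the measure. Over all genes it was -0.252 with locus length against -0.453. Pseudocounts, the median of all genes as centre, and leaving out *Cha* and *VAChT* moved no other of these counts by over 1.5 times. The estimated reads in *heph2* of the 7 genes under the minimum ran from 2 for *DopR* to 187 for *eag*, so not all of them rest on few reads. The scaling inside the FPKM values sets the sign of small ratios.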
